A study of Mus musculus with 6 samples.

Results

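Replication-dependent histone genes encode the core histones H2A, H2B, H3 and H4 and the linker histone H1 that package newly copied DNA. Their members were taken as every gene identifier whose name begins with Hist1h, Hist2h, Hist3h or Hist4h, the former symbols of the histone clusters. This gave 70 of the 54752 identifiers listed: 6 for H1, 20 for H2A, 19 for H2B, 12 for H3 and 13 for H4. Annotation classed 67 as protein-coding and 3 as pseudogenes (Hist1h2aj, Hist1h2al and Hist3h2bb-ps). RNA came from bone marrow of adult C57BL/6 mice, from pro-B cells isolated by FACS; these are early precursors of B cells that rearrange their heavy chain locus. The control group was 3 Skiv2l fl/fl mice, for which the labels name no Cre. The Skiv2l-deleted group was 3 Skiv2l fl/fl-Cd79a-Cre mice, in which Cre is expressed from the B lineage gene Cd79a, and all 6 mice carried the floxed alleles. Each mouse gave 1 library. Skiv2l encodes the helicase of the cytoplasmic SKI complex, which feeds RNA to the exosome, the 3′ to 5′ RNA-degrading complex.

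Replication-dependent histone genes are transcribed mainly in S phase, when DNA is copied, and their mRNAs are removed when replication ends. Unlike other mRNAs they normally have no introns and no poly(A) tail. Their 3′ end is a short stem-loop, bound by the protein SLBP, after which U7 snRNP and the cleavage factor CPSF2-CPSF3-SYMPK cut the transcript. Some of these genes can also end at a downstream poly(A) site, giving a tailed mRNA, most often in cells that have stopped dividing. Pro-B cells include large dividing cells, in which histone mRNA is normally abundant.

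The stem-loop was searched for as 16 bases with 6 paired bases on each side of a 4-base loop, on the transcribed strand. It was found in the annotated transcripts of 46 of 70 members (65.7%) and of 5 of 21834 other protein-coding genes (0.0229%), among them the variant gene H2afx. The examples below show 1 stem-loop for each histone type and the genes on which the results turn. Capitals mark the stem-loop and lower case marks 5 flanking bases on each side. They lie in 3′ ends at chr13:23739507-23739532 (Hist1h1c, plus strand), chr13:22042478-22042503 (Hist1h2ag, minus strand), chr11:58955167-58955192 (Hist3h2a, plus strand), chr11:58949344-58949369 (Hist3h2ba, plus strand), chr13:23535884-23535909 (Hist1h3g, plus strand), chr13:22040961-22040986 (Hist1h4i, minus strand) and chr13:23757361-23757386 (Hist1h4b, plus strand) of GRCm38.
Hist1h1c: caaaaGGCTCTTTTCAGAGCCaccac
Hist1h2ag: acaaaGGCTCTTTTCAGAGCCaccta
Hist3h2a: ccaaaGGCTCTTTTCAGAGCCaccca
Hist3h2ba: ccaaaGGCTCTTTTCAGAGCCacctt
Hist1h3g: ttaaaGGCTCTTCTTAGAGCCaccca
Hist1h4i: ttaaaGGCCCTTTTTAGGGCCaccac
Hist1h4b: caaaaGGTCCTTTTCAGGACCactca
The left arm of the stem was GGCTCT in every H1, H2A, H2B and H3 gene with a stem-loop, that is in 4, 11, 10 and 9 genes. In H4 it was GGCCCT in 10 genes and GGTCCT in 2. Hist3h2ba and Hist3h2a, neighbours on chromosome 11 whose values went apart below, carry the same 16 bases.

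RefSeq promoters of GRCm38.p6, running from 250 bases before to 50 bases after the start, were matched for 62 members. The octamer ATTTGCAT, the site of OCT1 and OCT2, was searched for on both strands. It stood in 7 of 18 H2A promoters and 7 of 16 H2B promoters, in no H1, H3 or H4 promoter, and in 1.97% of 27025 promoters in the table. H2A and H2B genes often lie head to head, and some share a single octamer, which is read on opposite strands. The sequences below show such shared sites and a site of Hist1h2bb alone, on the strand of the H2B gene, with the octamer in capitals. They lie at chr13:23571333-23571356 (between Hist1h2bg and Hist1h2ae, plus strand), chr13:22035783-22035806 (between Hist1h2bk and Hist1h2ah, plus strand) and chr13:23746636-23746659 (Hist1h2bb, plus strand) of GRCm38.p6.
Hist1h2bg and Hist1h2ae: agtcccttATTTGCATagaacctc
Hist1h2bk and Hist1h2ah: ttcactttATTTGCATacgaagtt
Hist1h2bb: agtctcttATTTGCATaaagcctt
The CCAAT box was found on either strand in every matched H1, H2A, H2B and H3 promoter and in 3 of 12 H4 promoters, against 41.1% of all promoters. TATAAA was found in 56.5% of member promoters and 15.7% of all promoters.

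Levels are FPKM, fragments scaled to transcript length and library size, so that genes are compared per length. The libraries held 1.74 to 2.40 Gb of aligned bases, as computed from the coverage and FPKM columns, and the median coverage of the members was 2.93 to 12.5 bases deep. The Skiv2l level was 25.4, 20.2 and 46.3 FPKM in controls 1 to 3 and 9.53, 16.1 and 10.9 in deleted libraries 1 to 3, so the groups did not overlap. Its log2 change was -1.21 ± 0.32 (SE), with a limma adjusted p of 0.063. Cd79b, a B cell receptor subunit, stood between 473 and 887 FPKM in the 6 libraries, while Cd3e, Cd3d and Cd8a of T cells were at or near 0. The summed FPKM of the 12 pro-B markers was 2945, 2383 and 3492 in the controls and 4683, 4322 and 5392 in the deleted libraries. Of the 12, 7 were called higher, against 4.97% of all genes tested. Control 3 and deleted 2 stood apart. The summed FPKM of 10 granulocyte and monocyte markers was 128, 510 and 1499 in the controls and 413, 2687 and 78.4 in the deleted libraries, and Mpo, the neutrophil peroxidase, stood at 343 FPKM in control 3 and 641 in deleted 2 against 4.30 to 8.99 elsewhere. Other genes of that list were high in control 2 and deleted 1 too: S100a8, a calgranulin, measured 2.30, 129 and 153 FPKM in the controls and 100.1, 207 and 1.97 in the deleted libraries, and Ngp, a neutrophil granule protein, 0.221, 58.3 and 25.2 against 49.6, 29.7 and 0.156. Control 1 and deleted 3 were thus the libraries lowest in these markers, and leaving out control 3 and deleted 2 does not remove them all. The summed FPKM of 9 erythroid markers was 222 in deleted 2 and 4.86 to 16.1 in the other libraries, and none of the 10 myeloid and 5 erythroid genes tested was called, at an adjusted or an unadjusted p below 0.05. That of the 6 plasma cell markers was 240 to 260 in the controls and 127 to 152 in the deleted libraries. Among these markers 2 of 4 tested genes were called lower, against 3.87% of all genes tested. The summed FPKM of the 8 T and NK markers was 5.25 to 18.3 and 13.8 to 43.6, with 1 of 2 called higher, against 4.97%. The called gene was Klrb1c, at 3.61, 2.43 and 2.64 FPKM in the controls and 12.0, 12.4 and 9.15 in the deleted libraries. Its log2 change was 1.65, with a limma adjusted p of 0.00608. Nkg7, not called, stood at 1.52, 2.83 and 15.7 against 10.3, 30.2 and 4.555. The part these markers have in the histone values was not tested, and the comparisons are given with and without control 3 and deleted 2.

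Histone RNA was lower on average in the Skiv2l-deleted libraries, in all 5 types, but the libraries of the groups overlapped in all types except H4. The FPKM of all 70 genes summed to 434, 297 and 640 in the controls and to 166, 342 and 294 in the deleted libraries. Control 3 was the highest library and deleted 1 the lowest, while deleted 2 lay above control 2. The means were 457 ± 173 and 267 ± 91.5 (SD, n = 3 each), a log2 ratio of -0.77. Leaving out 1 library at a time moved this ratio between -1.01 and -0.45, and without control 3 and deleted 2 together it was -0.67. These genes took 0.0593% to 0.116% of the FPKM of the control libraries and 0.033% to 0.0629% of that of the deleted libraries. In bulk RNA, fewer cells in S phase and less histone RNA per cell cannot be told apart.

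**Figure D1:**
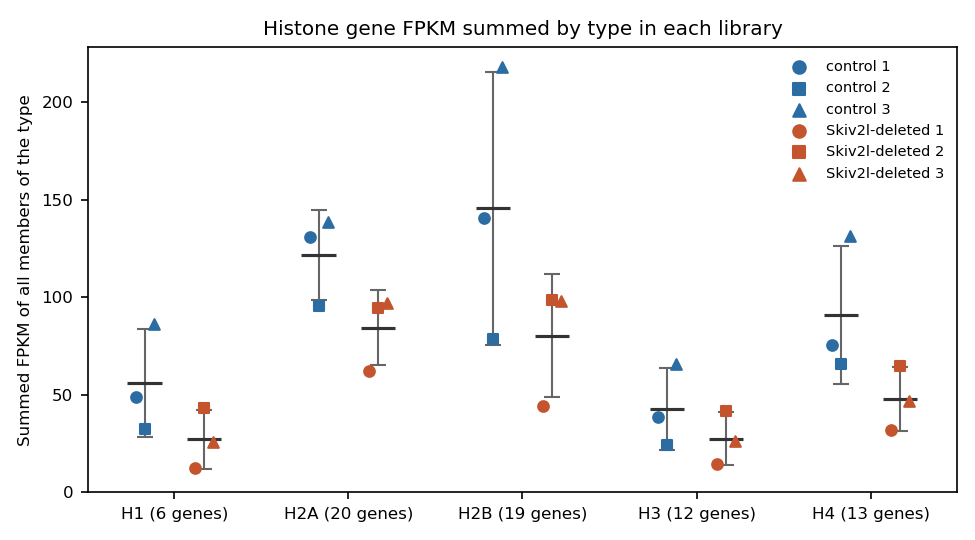
Summed FPKM (vertical axis) of all members of each histone type (horizontal axis) in 3 control and 3 Skiv2l-deleted libraries. Points are libraries, horizontal bars are group means and whiskers are 1 SD; the 2 groups overlap in H1, H2A, H2B and H3, and in H4 the highest deleted library (64.6) lies just under the lowest control (65.8).

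The fitted changes leaned down in nearly all genes, and 1 gene passed the test. Of the 70 members, 61 reached 1 FPKM in at least 3 of 6 libraries and were tested by limma on log2(FPKM + 1) with 13539 genes in all. Of these, 51 reached 1 FPKM in every library, 8 did so in the 3 controls but in fewer than 3 deleted libraries, and 2 in fewer than 3 controls (Hist1h2al and Hist2h2ab, both named after their values were seen). At a Benjamini-Hochberg adjusted p below 0.05, 1 of 61 members was called lower (1.64%), against 3.87% of all genes tested. None was called higher, against 4.97% of all genes, and none was higher at an unadjusted p below 0.05 either, against 15.7%. At an unadjusted p below 0.05, 14 members were lower (23.0%), against 9.85% of all genes. The median fitted log2 change of the 61 was -0.60 (range -1.27 to 0.27), beside 0.058 for all genes tested, and 59 of the 61 lay below 0, beside 42.2% of all genes. It was -0.33 without deleted 1 and -0.36 without control 3. The members' errors were large: their median SE was 0.337, beside 0.165 for all genes.

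The count of genes whose groups do not overlap was also uneven among the types. All 3 deleted libraries lay below all 3 controls in 13 members (21.3%), against 12.3% of all genes, and above them in none, against 19.9%. By type these were 1 of 4 tested H1 genes, 7 of 17 H2A genes, 2 of 18 H2B genes, 0 of 11 H3 genes and 3 of 11 H4 genes. Some share sequence, measured below as transcript windows that occur in another gene, so these counts are not independent. In H2A, Hist1h2af, Hist1h2ag, Hist1h2ah, Hist1h2ai, Hist1h2ao and Hist1h2ap had 77.6% to 93.1% of such windows, and Hist1h2ae had 34.4%. In H4, Hist1h4m had 89.0% and Hist1h4n 83.4%, against 22.4% in Hist1h4i. In Hist1h1c, Hist3h2ba and Hist2h2be the share was at most 13.9%. The part of read sharing in these counts was not tested. With control 3 and deleted 2 left out, both remaining deleted libraries lay below both remaining controls in 26 of 60 tested members, against 25.9% of all genes, and above them in 0, against 36.8%. In those 4 libraries, 1 member was called lower, Hist1h4i, against 5.89% of all genes, and none higher, against 7.64% (0 higher also at an unadjusted p, against 19.8%).

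**Figure D2:**
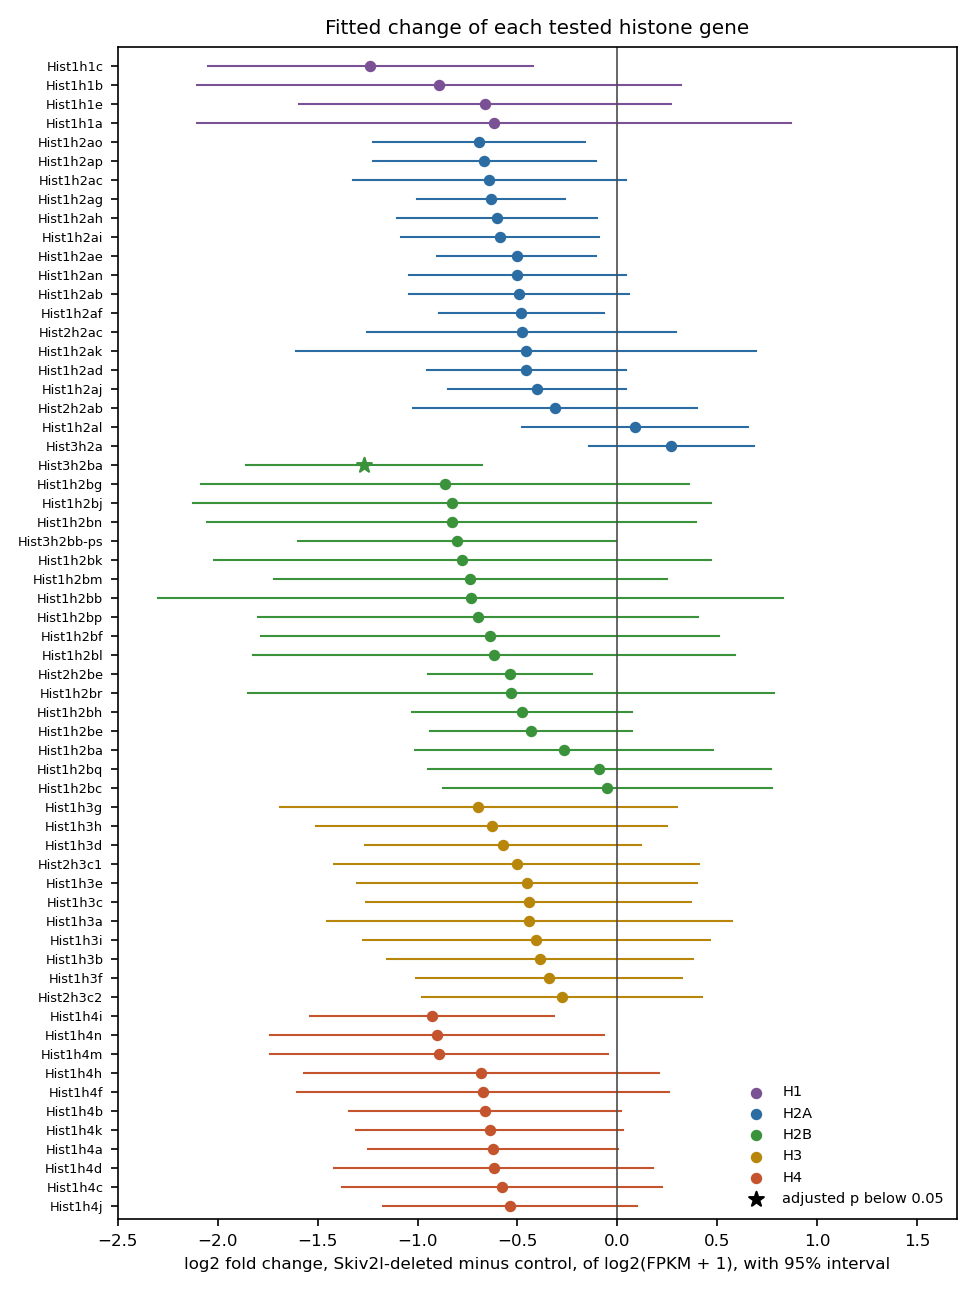
Fitted log2 change of log2(FPKM + 1), Skiv2l-deleted minus control (horizontal axis), of the 61 tested histone genes, ordered by type and size (vertical axis), with 95% intervals. Hist3h2ba, the star, is the gene with an adjusted p below 0.05; 59 of 61 points lie left of 0 and most intervals cross it.

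The linker histones H1 seal the DNA entering and leaving the nucleosome. Their summed FPKM was 48.9, 32.7 and 86.3 in the controls and 12.7, 43.1 and 25.8 in the deleted libraries, a log2 ratio of -1.04, and the groups overlapped because deleted 2 lay above control 2. Hist1h1c held the largest share of it, at 27.7, 20.3 and 40.6 FPKM in the controls and 7.02, 16.8 and 12.5 in the deleted libraries. The groups of Hist1h1c did not overlap, its log2 change was -1.24 ± 0.34 (SE), and its limma adjusted p was 0.0712. Hist1h1a, another somatic H1 gene, stood at 9.06, 5.49 and 23.5 in the controls and 2.64, 14.3 and 6.96 in the deleted libraries. Here deleted 2 was above 2 of the 3 controls, and the adjusted p was 0.603. Hist1h1b and Hist1h1e had log2 changes of -0.89 and -0.66 with adjusted p of 0.337 and 0.352, with deleted 2 again the highest deleted library. Hist1h1t, the H1 gene of testis, named after its values were seen, did not exceed 0.046 FPKM in any library.

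H2A forms dimers with H2B in the nucleosome core. Its summed FPKM was 131, 95.6 and 139 in the controls and 62.1, 94.3 and 97.1 in the deleted libraries, a log2 ratio of -0.53, and the groups overlapped only through control 2 and deleted 3. H2A was the type with the smallest spread between controls, the highest being 1.45 times the lowest, against 1.99 to 2.78 times in the others. Hist1h2ag was the most abundant H2A gene, at 21.3, 18.4 and 17.8 FPKM in the controls and 9.91, 12.0 and 14.4 in the deleted libraries. Every deleted library was below every control, the log2 change was -0.63 ± 0.16 (SE), and the adjusted p of 0.0526 lay just above the threshold. Hist1h2ao stood at 9.09, 6.83 and 11.2 against 3.77, 5.99 and 5.90, also without overlap, with a log2 change of -0.69 and an adjusted p of 0.108. Hist1h2ah stood at 13.5, 10.02 and 12.2 against 5.31, 8.51 and 9.07, with a log2 change of -0.60 and an adjusted p of 0.131. The H2A genes are close copies. In the median H2A gene, 71.5% of the 75-base windows of the longest transcript occurred in another gene, so how reads were divided between Hist1h2ah (91.5%), Hist1h2ao (93.1%) and Hist1h2ag (77.6%) is uncertain. Summed over the H2A genes with under 50% of such windows, the log2 ratio was -0.21. The most abundant of these genes was Hist3h2a, whose mean was 10.1 FPKM in the controls and 12.6 in the deleted libraries. The ratio without Hist3h2a was not computed. The other tested genes of that set were Hist1h2ac, Hist1h2ae, Hist1h2ak, Hist2h2ac and Hist1h2al, listed after their values were seen. Their log2 changes were -0.64, -0.50, -0.46, -0.48 and 0.09, and none was called.

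Hist3h2a was the member with the highest fitted change. It had control levels of 10.5, 9.15 and 10.7 FPKM and 9.89, 12.2 and 15.6 FPKM in the deleted libraries, with a log2 change of 0.27 ± 0.17 (SE) and an adjusted p of 0.392. Deleted 2 and 3 were above all controls and deleted 1 was between them, so the order of the libraries differed from that of most members. The pseudogene Hist1h2al, the only other tested member with a fitted value above 0, stood at 1.34, 0.983 and 2.28 against 1.10, 1.95 and 1.94, with a log2 change of 0.09 and an adjusted p of 0.871.

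H2B summed to 141, 78.5 and 218 FPKM in the controls and 44.2, 98.7 and 98.2 in the deleted libraries, a log2 ratio of -0.86. Control 3 was 2.78 times control 2, and deleted 2 and 3 both lay between controls 2 and 1. Hist3h2ba was the 1 member that fell. It measured 21.5, 14.1 and 24.1 FPKM in controls 1 to 3 and 6.67, 6.08 and 10.3 in the deleted libraries, so that the lowest control was above the highest deleted library. Its log2 change was -1.27 ± 0.25 (SE; 95% interval -1.86 to -0.68), with a limma adjusted p of 0.0273. Unlike most members, its lowest deleted library was deleted 2. The call was lost without deleted 1, 2 or 3 (adjusted p 0.113, 0.0705 and 0.0525), without control 1 (0.0969), and without control 3 and deleted 2 together (0.0758), and the log2 change stayed between -1.48 and -1.12 when 1 library was left out. Over all genes, 113, 307 and 116 were called lower without deleted 1, 2 or 3. The count was 171 without control 1 and 801 without control 3 and deleted 2, against 524 in the reported fit.

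The other abundant H2B genes followed the library order of the sum rather than the groups. Hist1h2bg had control levels of 11.1, 6.08 and 22.7 FPKM and 2.81, 9.42 and 7.54 FPKM in the deleted libraries, with a log2 change of -0.86 and an adjusted p of 0.355. Hist1h2bj stood at 11.9, 5.53 and 22.4 against 2.77, 10.6 and 7.06, with an adjusted p of 0.406. Hist1h2bb had the widest controls of these, at 13.2, 3.00 and 20.1 against 2.30, 7.99 and 7.77, with an adjusted p of 0.55. In all 3 genes, deleted 2 lay above control 2 and the groups overlapped. Among the H2B genes, Hist1h2bc and Hist1h2bq lay nearest to no change, with log2 changes of -0.05 and -0.09 (95% intervals -0.88 to 0.77 and -0.95 to 0.77). Hist2h2be, an H2B gene of the chromosome 3 cluster named after its values were seen, stood at 10.2, 11.8 and 7.92 against 6.00, 5.97 and 7.54. It was the 1 tested member with control 2 the highest control, the groups did not overlap, and the adjusted p was 0.105 and, without control 3, 0.0365.

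**Figure D3:**
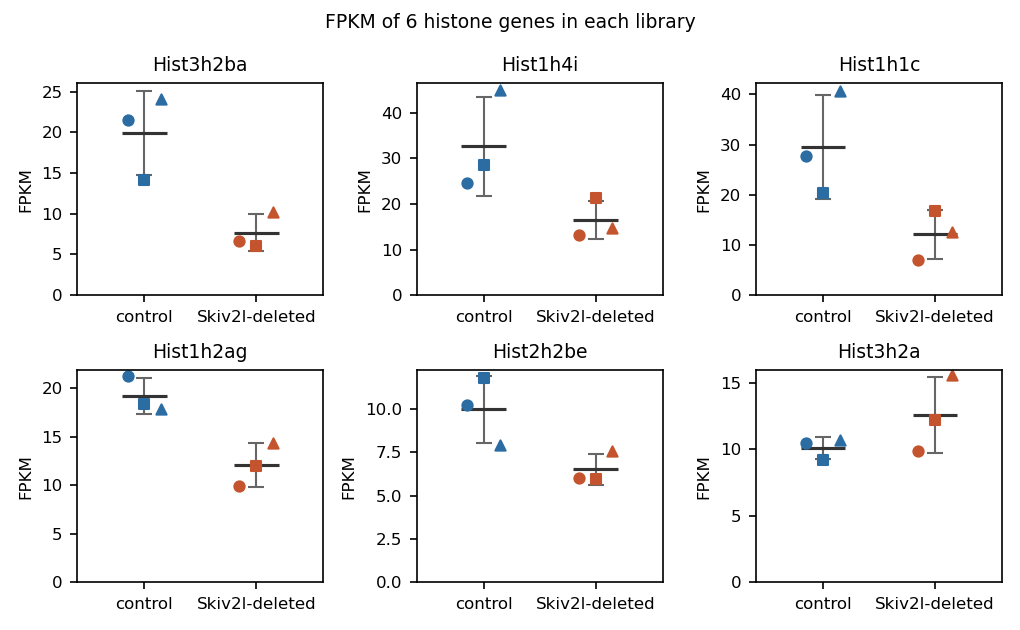
FPKM (vertical axes, from 0) of 6 histone genes in the control (blue) and Skiv2l-deleted (orange) libraries; circles, squares and triangles are replicates 1, 2 and 3, horizontal bars are means and whiskers are 1 SD. Hist3h2ba, Hist1h4i, Hist1h1c, Hist1h2ag and Hist2h2be show no overlap between groups, and Hist3h2a has deleted 2 and 3 above every control.

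H3 pairs with H4 to form the tetramer at the centre of the nucleosome. H3 summed to 38.5, 24.4 and 65.8 FPKM in the controls and 14.5, 41.7 and 26.2 in the deleted libraries, a log2 ratio of -0.64, and deleted 2 lay above controls 1 and 2. No H3 gene separated the groups, and the adjusted p ran from 0.28 to 0.622. Hist1h3g had the largest change, -0.70 ± 0.42 (SE), at 5.26, 3.13 and 8.44 FPKM in the controls and 1.36, 5.33 and 2.85 in the deleted libraries. Hist1h3a, at 4.30, 2.72 and 8.86 against 1.73, 5.48 and 3.39, had a log2 change of -0.44 and an adjusted p of 0.583. Hist1h3i, the most abundant H3 gene, and Hist1h3c had log2 changes of -0.40 and -0.44 with adjusted p of 0.554 and 0.484. Control 3 was the highest control in 11 of 11 tested H3 genes.

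H4 summed to 75.4, 65.8 and 131 FPKM in the controls and 31.9, 64.6 and 46.9 in the deleted libraries, a log2 ratio of -0.92. It was the only type in which the groups did not overlap, by the small margin between deleted 2 and control 2. That margin was smaller than the difference in Hist1h4i alone, at 28.5 FPKM in control 2 and 21.2 in deleted 2. In most other tested H4 genes deleted 2 lay above control 2. Hist1h4i, the most abundant member of all, measured 24.5, 28.5 and 44.9 FPKM in controls 1 to 3 and 13.3, 21.2 and 14.8 in the deleted libraries. Its log2 change was -0.93 ± 0.26 (SE), with an adjusted p of 0.0712 over 6 libraries and 0.019 without control 3 and deleted 2. Hist1h4n and Hist1h4m, 83.4% and 89.0% of whose windows occur in another gene, had log2 changes of -0.90 and -0.89 with adjusted p of 0.168 and 0.175. Hist1h4k, at 6.14, 5.55 and 10.4 against 2.96, 6.04 and 4.04, had a log2 change of -0.64 and an adjusted p of 0.215. The fitted changes of all 11 tested H4 genes lay between -0.93 and -0.54.

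The same libraries were high or low in gene after gene. Control 3 was the highest control in 55 of 61 tested members and control 2 the lowest in 55. Deleted 2 was the highest deleted library in 51 and deleted 1 the lowest in 59, and all 4 statements held together in 45. Deleted 2 lay above control 2 in 47, whereas deleted 1 lay below control 2 in 58 and deleted 3 below control 1 in 56. Members share their libraries and, in part, their reads, so these counts are not independent. The shares of all tested genes with the same library order were not computed. Over all tested genes, deviations from the group means correlated at 0.557 for control 3 and deleted 2. For control 2 and deleted 1 the correlation was 0.488. The ratio of control 3 to control 1 had a median of 1.83 in H1, 1.56 in H2B, 1.62 in H3 and 1.69 in H4, and of 1.05 in H2A, where control 3 was the highest control in 12 of 17 genes.

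**Figure D4:**
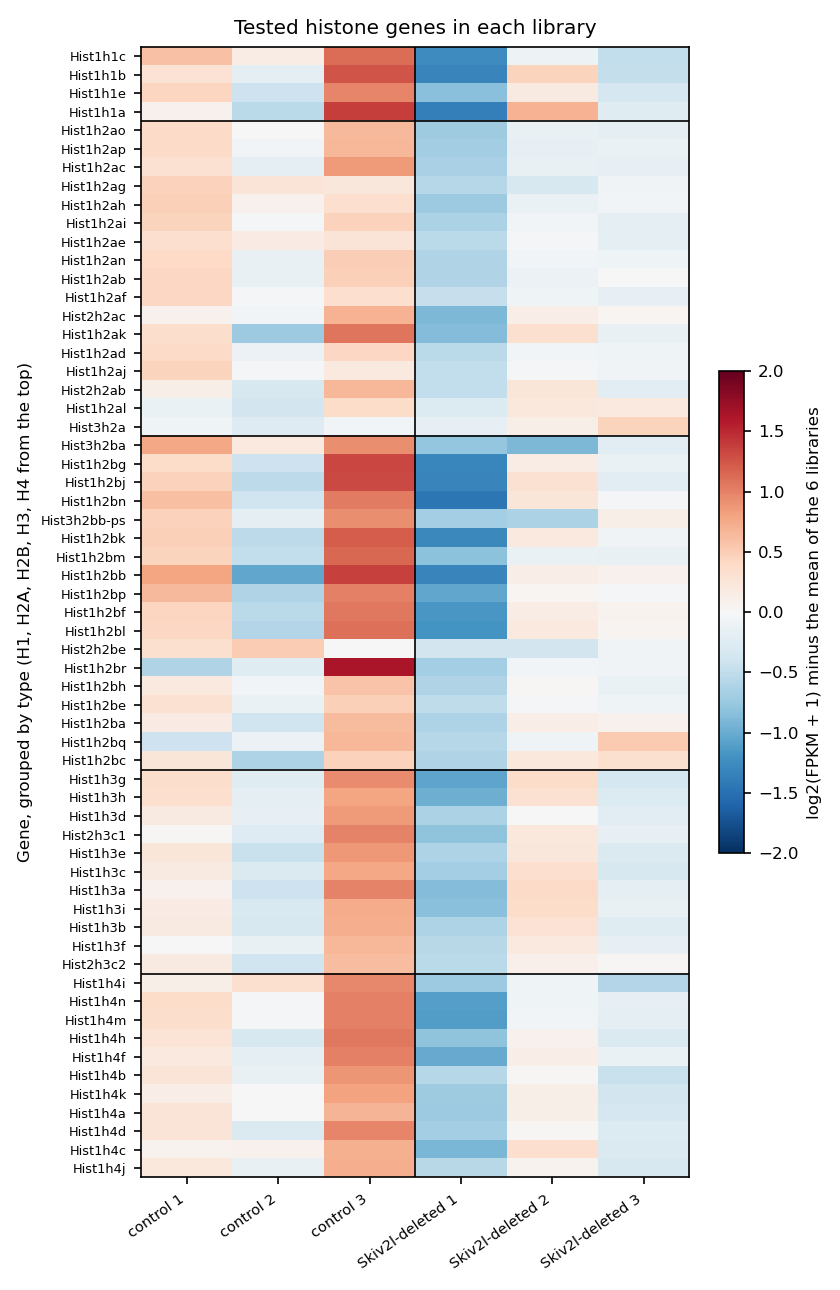
Each tested histone gene (rows, grouped as H1, H2A, H2B, H3 and H4 from the top) in each library (columns), coloured by log2(FPKM + 1) minus the gene's mean over the 6 libraries. Control 3 is the reddest column in most rows and deleted 1 the bluest, and deleted 2 is near or above control 2 in most rows.

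RNAs that carry no poly(A) tail moved with some of these libraries. The labels describe the libraries as mRNA-seq, and the sources used here do not say how mRNA was enriched. The 14 listed RNAs made by RNA polymerase III or otherwise without a tail summed to 80.9, 43.1 and 175 FPKM in the controls and 41.9, 244 and 59.2 in the deleted libraries. Rn7sk, the RNA that holds the elongation factor P-TEFb inactive, stood at 25.8, 15.5 and 46.7 against 14.7, 74.3 and 15.3. The highest library of each group was the same as for the histone sum, control 3 and deleted 2, and the lowest was the same too, control 2 and deleted 1. Between the groups the direction differed, because deleted 2 was the highest of all 6 libraries for these RNAs and not for the histones. None of the 5 tested RNAs was called in either direction by limma, at an adjusted or an unadjusted p below 0.05, and their median log2 change was -0.04. The part of RNA selection in the histone values was not tested.

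**Figure D5:**
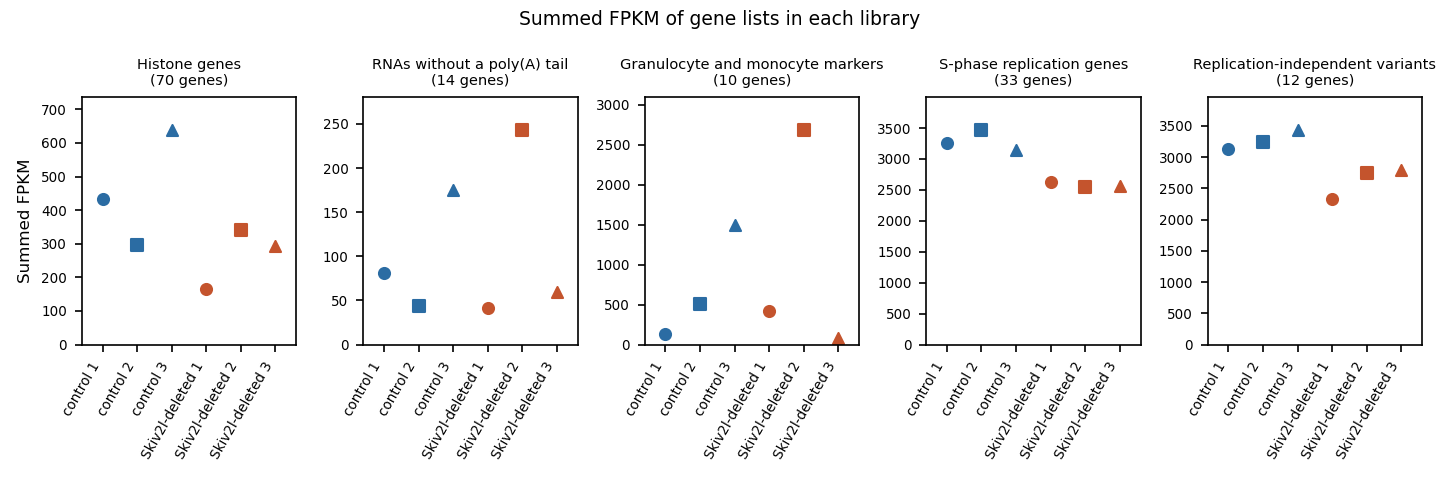
Summed FPKM (vertical axes, from 0, each on its own scale) in each library of the 70 histone genes, 14 RNAs without a poly(A) tail, 10 granulocyte and monocyte markers, 33 S-phase replication genes and 12 replication-independent variants. Control 3 and deleted 2 are the high libraries of their groups in the first 3 panels; in the last 2 panels all deleted libraries lie below all controls.

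The summed level was lower in the deleted than in the control mean in every class of transcript end. In 23 members the annotated transcript ended within 100 bases after the stem-loop, and these summed to 163 ± 68.1 FPKM in the controls and 92.9 ± 34.3 in the deleted libraries (SD, n = 3 each), a log2 ratio of -0.81. In 23 others it ran over 100 bases past the stem-loop, and the ratio was -0.87. The 13 members with no stem-loop whose annotation ended at the stop codon had a ratio of -0.73, and the 11 others without one had -0.54. A poly(A) signal, AATAAA or ATTAAA, stood in the last 50 bases of a transcript in 17 of 70 members (24.3%), against 78.0% of other protein-coding genes. The ratio was -0.85 in the members with the signal and -0.74 in those without, but the medians of the fitted changes had the opposite order, -0.54 and -0.62. The same held for the stem-loop classes, with medians of -0.67 where the annotation ended near the stem-loop and -0.57 where it ran past it. Hist3h2ba, Hist1h1c, Hist1h4i and Hist2h2be were among the 17, and so was Hist3h2a. By promoter octamer, the H2B ratio was -0.94 with it and -0.95 without, and the H2A ratio -0.34 with it, where Hist3h2a is included, and -0.66 without. The medians of the fitted H2A changes were -0.50 in either class. Each of these sums covers the same 6 libraries, and the differences between them were not tested.

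The members lie in a few clusters. The chromosome 13 cluster has a block of 24 genes between 21715763 and 22043676 and a block of 31 between 23531050 and 23934851, with log2 ratios of summed FPKM of -0.81 and -0.79. The 10 genes on chromosome 3, between 96219865 and 96270132, had a ratio of -0.61. The 3 genes on chromosome 11, between 58948920 and 58956830, had -0.62, and include both Hist3h2ba and Hist3h2a. The single gene on chromosome 6, Hist4h4, stayed at or below 0.714 FPKM. Of the 70 members, 38 had under 50% of their windows in another gene, and Hist1h2aa and Hist2h2aa2 were listed at 0 in all 6 libraries.

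Replication-independent variants are as a rule polyadenylated and replace the S-phase histones outside replication. Of 10 tested, 3 fell (limma, Benjamini-Hochberg) and 0 rose, against 3.87% and 4.97% of all genes tested. At an unadjusted p below 0.05 4 were lower and 1 higher, against 9.85% and 15.7%, and the median log2 change was -0.26. H2afx, the variant phosphorylated at DNA breaks, differs from that rule in that an annotated transcript carries the stem-loop. It had control levels of 458, 503 and 611 FPKM and 288, 263 and 301 FPKM in the deleted libraries, a log2 change of -0.87 ± 0.14 (SE) with an adjusted p of 0.0142. Cenpa, the H3 variant of centromeres, fell by 0.87 on the log2 scale (219, 222 and 270 against 120, 140 and 127 FPKM, adjusted p 0.0109), and H2afv by 0.92 (278, 285 and 431 against 142, 208 and 169, adjusted p 0.0441). In these 3 genes every deleted library lay below every control, and control 3 was the highest library. The calls of all 3 were lost without deleted 1 or without deleted 3, when 0 variants passed, and that of H2afv was also lost without deleted 2, control 1 or control 2 (adjusted p 0.0523, 0.0847 and 0.0815). Each of these fits also called fewer genes over the whole table than the reported fit. H2afz, H3f3a and H3f3b had log2 changes of -0.26, -0.17 and -0.26 with adjusted p of 0.221, 0.775 and 0.35. The linker variants H1fx (-0.87) and H1f0 (0.15) had adjusted p of 0.114 and 0.814.

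Of 16 tested genes for histone gene transcription and 3′ end processing, 1 fell and 0 rose by the same limma test. Of all genes tested, 3.87% fell and 4.97% rose. At an unadjusted p below 0.05 1 of the 16 was lower and 1 higher, against 9.85% and 15.7%, and the median log2 change was -0.05. The gene that fell was Slbp, whose protein binds the stem-loop, at 160, 151 and 132 FPKM in the controls and 95.8, 107 and 103 in the deleted libraries. Its log2 change was -0.53 ± 0.11 (SE), with an adjusted p of 0.032. Unlike the histone sum, Slbp was lowest among controls in control 3, and the groups did not overlap. The call held without control 3 and was lost without any other single library, with adjusted p up to 0.151. Npat, the coactivator of histone genes, stood at 10.2, 10.1 and 5.56 against 9.83, 7.76 and 9.42, and its partner Casp8ap2 at 13.4, 14.6 and 8.89 against 14.5, 10.4 and 12.4. Of the U7 snRNP proteins, Lsm10 had a log2 change of 0.49 with an adjusted p of 0.104 and Lsm11 of -0.09 with 0.701, and the U7-associated factor Zfp473 had -0.40 with 0.263. Of 13 tested genes for histone mRNA decay, 0 fell and 0 rose. Eri1, the exonuclease that trims the stem-loop, had a log2 change of -0.30 with an adjusted p of 0.249, and Upf1 and Exosc10 had -0.15 and 0.05 with 0.39 and 0.846. At an unadjusted p below 0.05, 2 of the 13 decay genes were lower, against 9.85% of all genes, and none was higher, against 15.7%. These were Lsm5 (-0.30) and Lsm6 (-0.42), named after their values were seen, of the LSM ring that binds oligouridylated histone mRNA. The other ring genes tested, Lsm1, Lsm2, Lsm3, Lsm4 and Lsm7, had log2 changes of -0.21, 0.01, -0.12, -0.06 and 0.10.

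Of 19 tested histone chaperones, 2 fell and 0 rose by the limma test, against 3.87% and 4.97% of all genes tested. Their median log2 change was -0.21, and at an unadjusted p below 0.05 7 were lower and 0 higher, against 9.85% and 15.7%. Asf1b, which hands H3-H4 to replication forks, measured 113, 139 and 102 FPKM in controls 1 to 3 and 78.3, 74.3 and 81.5 in the deleted libraries (log2 change -0.58, adjusted p 0.0431). Dnajc9, an H3-H4 chaperone with a J domain, stood at 163, 178 and 154 against 120, 111 and 114 (log2 change -0.51, adjusted p 0.0264). Both calls were lost when deleted 1, 2 or 3 or control 1 or 2 was left out, with adjusted p up to 0.158 and 0.13. Of 33 tested S-phase replication genes, 9 fell and 0 rose, beside the same shares of all genes, and the median log2 change was -0.34. At an unadjusted p below 0.05 22 were lower and 1 higher, against 9.85% and 15.7% of all genes. Rrm2, the small subunit of ribonucleotide reductase, stood at 346, 370 and 271 FPKM against 190, 190 and 206 (log2 change -0.74, adjusted p 0.024), and E2f1, a transcription factor of the G1 to S transition, at 32.3, 25.2 and 32.3 against 17.2, 19.9 and 17.7 (log2 change -0.67, adjusted p 0.0289). The others were Ccna2, Rfc4, Rfc3, Gins3, Mcm10, Mcm7 and Pold1. Without deleted 1 or without deleted 3, 0 of the list fell. Over all genes, 113 of 13286 and 116 of 13263 were called lower in these 2 fits, against 524 of 13539 in the reported fit. The summed FPKM of the list was 3255, 3475 and 3153 in the controls and 2630, 2545 and 2566 in the deleted libraries, without overlap. In this list the controls differed by 1.10 times and control 3 was the lowest of them, whereas in the histone sum they differed by 2.15 times and control 3 was the highest.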

How the data were processed

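RNA was isolated with RNeasy columns, and the mRNA-seq libraries kept strand, per the labels' protocols. For each library the authors deposited gene FPKM, TPM and mean coverage, per the file headers. The submitters' processing notes name GRCm38 as the build. The aligner, the quantifier, the strand setting and the handling of reads shared between genes were not given in the sources used here. All 70 member identifiers had the same coordinates in GENCODE release M21, whose transcripts gave the stem-loops, poly(A) signals and 75-base windows. Promoters came from RefSeq.

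FPKM was summed per gene identifier. Genes that reached 1 FPKM in 3 or more libraries were tested with limma 3.58.1 in R 4.3.3 on log2(FPKM + 1), with a variance trend, genotype as the factor and Benjamini-Hochberg adjustment over 13539 genes, called below 0.05. A log2 change on this scale understates the change of low genes. FPKM holds no read counts, so no count model and no counting interval was used. An exact permutation test of 3 against 3 cannot go below p = 0.1 and was not used. Sums by type were not tested.

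The members, the gene lists and the marker lists were chosen with earlier results of these data known. Members were named by rule: called genes, the 4 most abundant of each type, and the 4 largest and 4 smallest changes. In companion lists, called genes and a fixed set of others were named. Alternatives were pseudocounts of 0.1 and 0.5, other filters, TPM, median scaling, quantile normalization, array weights, a replicate block, members with under 50% shared windows, and leaving out libraries.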

Additional observations from a re-analysis of the deposited data

How the results depend on the processing

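The fitted median log2 change of the members stayed below 0 under every alternative run, between -0.79 and -0.33 with 1 library left out, and no member was called higher under any of them. The log2 ratios of summed FPKM also kept their sign, between -1.54 and -0.58 for H1, -0.67 and -0.35 for H2A, -1.16 and -0.45 for H2B, -1.07 and -0.19 for H3, -1.20 and -0.56 for H4 and -1.01 and -0.45 for all types with 1 library left out. Restricted to members with under 50% of their windows in another gene, the H2A ratio was -0.21 against -0.53, and those of the other types lay between -1.04 and -0.68. The most abundant H2A gene kept was Hist3h2a, with means of 10.1 FPKM in the controls and 12.6 in the deleted libraries. The parts of this gene and of read sharing in the H2A move were not tested. The count of members called lower, 1 in the reported fit, was 10 with array weights, 2 with median scaling, 2 with quantile normalization, 0 with no filter on low values, and 0 to 2 with 1 library left out. It was 2 without control 3 (Hist3h2ba and Hist2h2be), 1 without control 2 and 0 without any other single library. With array weights, 1407 of all 13539 genes were called lower, against 524 in the reported fit. The counts over all genes in the other fits are given below. Hist3h2ba kept its call in 10 of 16 alternatives.

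Replicate numbers shared by the groups did not pair the libraries: the deviations from the group means correlated at 0.0939, -0.4285 and -0.3547 for numbers 1, 2 and 3, and some differently numbered libraries correlated more (0.557 for control 3 and deleted 2). With the replicate block, Hist3h2ba stayed called (1 member, adjusted p 0.0302), 365 genes were called in all against 1197, and the count of companion genes called lower was 0 among variants, 0 among transcription and processing genes, 0 among chaperones and 0 among S-phase genes.

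The other companion counts moved as follows, with the cause not tested. Variants lower (3 reported) were 1 with no filter and 0 to 3 with 1 library left out, and variants higher were 1 with array weights and 1 without control 3 and deleted 2. Transcription and processing genes lower (1 reported) were 0 with TPM, with no filter and with quantile normalization and 0 to 1 with 1 library left out, and higher 1 with array weights, 1 without control 3 and deleted 2 and 0 to 1 with 1 library left out. Decay genes lower (0 reported) were 2 with array weights, 1 with median scaling, 1 without control 3 and deleted 2 and 0 to 1 with 1 library left out. Chaperones lower (2 reported) were 0 with TPM, 8 with array weights, 4 with median scaling, 0 with no filter, 1 with quantile normalization and 0 to 2 with 1 library left out. S-phase genes lower (9 reported) were 20 with array weights, 4 with no filter and 0 to 12 with 1 library left out, and higher 1 with array weights, 1 without control 3 and deleted 2 and 0 to 1 with 1 library left out. Over all genes, 3449 were called with array weights (1407 of 13539 lower, 2042 higher) and 512 with no filter (232 of 28354 lower, 280 higher). Lower calls were 468 of 14985 with TPM, 633 of 13539 with median scaling and 601 of 13539 with quantile normalization. Without control 3 and deleted 2, 801 of 13605 were lower and 1039 higher. With 1 library left out, 113 to 729 were lower and 63 to 1020 higher, against 524 and 673 of 13539 in the reported fit.

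None of the genes named by the rule whose fitted log2 change crossed 0 was called in any of these fits. Other members are not listed here, among them Hist1h2br, which went from -0.532 to 0.0448 without control 3 and deleted 2. For the named genes, the change without control 3 and deleted 2 was -0.0595 for Casp8ap2, -0.0717 for Npat, 0.0483 for Hist1h2bc and 0.24 for Hist1h2bq. With array weights it was -0.066 for Casp8ap2, -0.0598 for Npat, -0.0186 for Exosc10, 0.0308 for Hist1h2bc and 0.47 for Hist1h2bq. With median scaling it was -0.0217 for Casp8ap2 and -0.0051 for Exosc10, and with quantile normalization -0.036 for Casp8ap2. With 1 library left out it ran from -0.17 to 0.16 for Casp8ap2, -0.018 to 0.11 for Exosc10, -0.14 to 0.33 for H1f0, -0.37 to 0.13 for H3f3a, -0.073 to 0.29 for Hist1h2al, -0.37 to 0.24 for Hist1h2bc, -0.38 to 0.22 for Hist1h2bq and -0.16 to 0.22 for Npat.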
